A study of Macaca mulatta with 8 samples.

Results

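The miRNAs of neural progenitor cells (NPCs) were set against those of the pluripotent embryonic stem cells (ESCs) from which they had been derived, in 1 small RNA library of each. The members were all 451 rhesus miRNAs in the deposited table, and the NPC and ESC libraries are 2 of the 8 libraries of the series. Both came from wild type cells of the rhesus monkey (Macaca mulatta) line IVF3.2, so that the comparison rests on 1 cell line. NPCs had grown out of neural rosette stem cells and were kept for more than 100 days on polyornithine and laminin, in an N2 medium to which the growth factors EGF, FGF2 and BDNF (each at 20 ng/mL) and ascorbic acid (at 0.2 mM) were added. ESCs were grown on feeders of inactivated mouse embryonic fibroblasts. Rosette cells at passage 1 (R-NSCP1) and at passage 6 (R-NSCP6) stand between the 2 stages and are given here only where they place a difference. Differentiation was repeated many times to gather enough cells for sequencing, so that each stage is 1 library without replicates. No test was therefore made, and each value describes these libraries.

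miRNAs are short RNAs that guide Argonaute proteins to messenger RNAs, mostly by pairing of the seed, which is bases 2 to 8 of the mature strand. miRNAs that share a seed can share many targets, and those that lie close together in the genome are often cut from 1 primary transcript. In mammals, the miR-302 cluster (miR-302a to d and miR-367) and the miR-371 cluster (miR-371, miR-372 and miR-373) are known for pluripotent cells, and let-7, whose maturation is blocked by the LIN28 proteins, is known for cells that have left that state.

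The mRNA libraries of the same stages were used to check the labels. POU5F1, a core pluripotency factor, had 0.0583 FPKM (fragments per kilobase of transcript and 1000000 mapped fragments) in NPCs and 1176 FPKM in ESCs, and NANOG had 0.0868 FPKM in NPCs and 113 FPKM in ESCs. SOX2, which both pluripotent and neural stem cells use, had 296 FPKM in NPCs and 113 FPKM in ESCs, and the intermediate filament gene NES had 677 FPKM in NPCs and 141 FPKM in ESCs. Genes of astroglia were also high in the NPC library: GFAP had 483 FPKM in NPCs and 0.246 FPKM in ESCs, and S100B had 159 FPKM in NPCs and 0.136 FPKM in ESCs. The markers of ESCs were thus where the labels place them, while the NPC library held progenitor and astroglial genes together.

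The mature sequences below carry the main contrasts, and are given as deposited, 5′ to 3′, with the seed in capitals. The first 7 were high in ESCs, and they fall into 2 seed groups, AAGTGCT and ATTGCAC, to show that unlike miRNAs of 1 cluster (miR-302 and miR-367) have different seeds while miRNAs of different clusters share one.
miR-302a: tAAGTGCTtccatgttttggtga
miR-302b: tAAGTGCTtccatgttttagtag
miR-302d: tAAGTGCTtccatgtttgagtgt
miR-372: aAAGTGCTgcgacatttgagcgt
miR-373: gAAGTGCTtcgattttggggtgt
miR-367: aATTGCACtttagcaatggtga
miR-92a: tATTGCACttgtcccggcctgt
The next 7 were high in NPCs and stand for abundant seed groups with higher shares there than in ESCs, namely miR-99/100, let-7, miR-27, miR-30 and miR-181.
miR-100: aACCCGTAgatccgaacttgtg
miR-99a: aACCCGTAgatccgatcttgtg
let-7a: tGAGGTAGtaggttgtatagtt
let-7c: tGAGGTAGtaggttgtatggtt
miR-27b: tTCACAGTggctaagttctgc
miR-30a-5p: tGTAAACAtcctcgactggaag
miR-181a-5p: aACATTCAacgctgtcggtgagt

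The deposited miRNA counts, some of which are means over entries, summed to 4295120 in the NPC library. They summed to 10196819 in the ESC library, which is 2.37 times as many. By the totals that the authors state, more reads were sequenced for NPCs than for ESCs. A smaller part of the NPC reads was thus counted as miRNAs, and the reason was not tested. Counts were scaled to reads per 1000000 of the column sum (rpm), so that each value is a share of a library and not an amount per cell, and 1 read stands for 0.233 rpm in NPCs and 0.0981 rpm in ESCs. Of the 451 miRNAs, 84 had no read in the NPC library and 12 had none in the ESC library. A count of 0 allows up to 3 reads, or 0.698 rpm in NPCs and 0.294 rpm in ESCs. The intervals given are exact 95% intervals of a ratio of counts and cover counting error only, since amplified reads are not independent molecules. For the 110 miRNAs with at least 1000 reads in both libraries they reached 0.11 on the log2 scale. Spread between cultures was not measured.

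For 13 miRNAs, among them miR-9, miR-21, miR-22, miR-127 and miR-31, the deposited value appeared to be a mean over several differently numbered miRNAs whose names begin with the same characters (miR-22 with miR-221, miR-222 and so on). They made up 4.95% of the NPC and 4.22% of the ESC column sum. They were kept among the 451, and where one is named its value is that of the mean. In all, 39 miRNAs had a value that was not whole. For others of these, such as miR-92a, miR-26a, miR-16 (each with a divisor of 2) and let-7a (3), the value appeared to be a mean over entries of the same miRNA. Shares of reads and ranks given here are therefore those of the deposited values.

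At least 10 rpm in NPCs or ESCs was reached by 309 miRNAs, and these were compared. At least 2-fold higher in NPCs were 79 of them (25.6% of those compared), and at least 2-fold lower were 134 (43.4%). The other 96 lay within 2-fold. Large folds were mostly those of lower miRNAs: 36 miRNAs were at least 100-fold lower in NPCs and 3 were at least 100-fold higher. No read was found in NPCs for 13 of the compared miRNAs, and none of the compared miRNAs was without reads in ESCs. Next to the limit of 2-fold lay miR-1468, 2.01-fold higher, and miR-107, 1.996-fold higher and just outside, and on the other side miR-130a, 2.08-fold lower, and miR-138, 1.99-fold lower and just outside. The split depended on the scaling: with the size factors of DESeq2, which moved the median log2 ratio of these miRNAs by 0.47, 102 were higher and 122 lower, and with counts not scaled for depth 49 were higher and 194 lower. With all sequenced reads as the depth, 47 were higher and 198 lower.

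**Figure D1:**
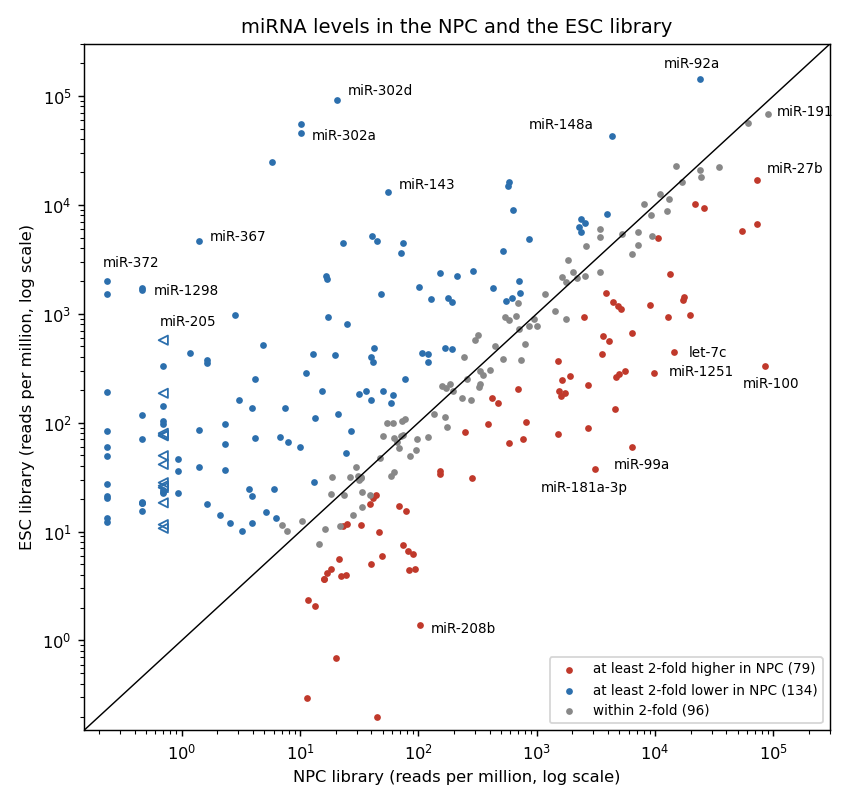
Level of the 309 compared miRNAs in the NPC library (x axis) and in the ESC library (y axis), in rpm on log scales, with the line of equal levels. Open triangles mark miRNAs with no read in NPCs, drawn at the 0.698 rpm that 3 reads make. The upper left holds the miR-302 cluster, and miR-100 and miR-99a lie farthest from the line among the abundant miRNAs at the lower right.

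The 2 libraries were about equally concentrated on few miRNAs. The most abundant miRNAs that together held 50% of the reads numbered 9 in NPCs and 7 in ESCs, and the 10 most abundant took 54.7% of the reads in NPCs and 57.2% in ESCs. Of those 10, 4 were shared by both libraries: miR-191, miR-92b, miR-92a and miR-26a. miR-191, the most abundant in NPCs, had 90365 rpm in NPCs and 67949 rpm in ESCs. miR-92b had 61493 rpm in NPCs and 56205 rpm in ESCs. The shares of the reads held by the called miRNAs were as follows: those at least 2-fold higher in NPCs held 54.8% of the NPC reads and 7.55% of the ESC reads, and those at least 2-fold lower held 5.12% of the NPC reads and 57.5% of the ESC reads.

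Grouped by seed, the ESC library was led by a pair of seeds. The seed ATTGCAC, of miR-92a, miR-92b, miR-25, miR-363, miR-367 and miR-32, took 9.73% of the NPC reads and 22.6% of the ESC reads. The seed AAGTGCT, of the miR-302 members, miR-372, miR-373, miR-93 and a few others, took 0.222% of the NPC reads and 22.3% of the ESC reads. Together they made up 44.8% of the ESC library. In NPCs no seed reached such a share. The largest, GTAAACA of the miR-30 family, took 13.6% of the NPC reads and 4.01% of the ESC reads, and ACCCGTA of miR-99 and miR-100 took 11.5% of the NPC reads and 2.13% of the ESC reads. miR-93 and miR-32 are among the 13 averaged values.

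**Figure D2:**
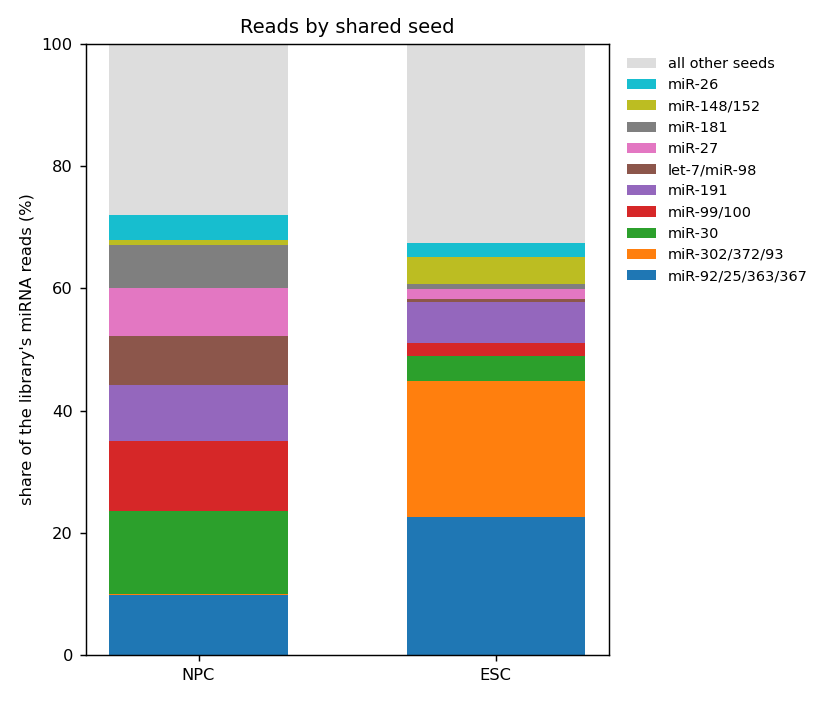
Share of the miRNA reads (%) in the NPC library (left) and the ESC library (right) by shared seed, for 10 seed groups named by their leading members. The group led by miR-302d takes 0.222% of the NPC and 22.3% of the ESC reads, and the let-7/miR-98 group takes 8.02% of the NPC and 0.459% of the ESC reads.

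The clusters of pluripotent cells were nearly gone from NPCs. All 5 members of the miR-302 cluster were lower, and summed to 48.2 rpm in NPCs, against 221844 rpm in ESCs, with a median log2 ratio of −12.12, where the median over all compared miRNAs was −0.42. miR-302d had 20.5 rpm (88 reads) in NPCs and 91495 rpm in ESCs, which is 4466-fold lower (3625 to 5568). miR-302a had 10.2 rpm (44 reads) in NPCs and 55211 rpm in ESCs. miR-367, which is cut from the same transcript but carries the other seed, had 1.40 rpm (6 reads) in NPCs and 4678 rpm in ESCs. The members thus lay within a narrow band, from −12.40 to −11.71 on the log2 scale.

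The 4 measured miRNAs of the miR-371 cluster, which shares the AAGTGCT seed through miR-372 and miR-373, were also lower. They summed to 0.931 rpm in NPCs and 5233 rpm in ESCs. miR-372 had 1 read in NPCs and 20283 reads in ESCs, a ratio of 8544 that counting error places anywhere between 1533 and 337472. miR-371-3p had no read in NPCs and 814 in ESCs and was at least 114-fold lower. The primate cluster C19MC, which is known for placenta, was low in both: its 26 measured miRNAs had no read in NPCs and summed to 122 rpm in ESCs, where 1 of them also had no read, and only miR-512-3p, with 49.7 rpm in ESCs, was abundant enough to be compared.

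Less complete was the change in miR-17, miR-92a and the members of their related clusters, which promote proliferation. Of 14 members 9 were lower and 5 lay within 2-fold, where 43.4% of all compared miRNAs were lower, and the ratios varied. Under the 5 other scalings 8 to 14 of the 14 were lower. Of the cluster that holds miR-106a and miR-363, miR-18b had 25.1 rpm in NPCs and 798 rpm in ESCs, a log2 ratio of −4.99. miR-363 had 636 rpm in NPCs and 8871 rpm in ESCs, a log2 ratio of −3.80, and that of miR-106a was −4.09. In the miR-17 cluster itself the ratios ranged more widely, with −3.09 for miR-18a, −1.66 for miR-17-5p and −1.41 for miR-20a. miR-106b and miR-25, of the remaining cluster, had log2 ratios of −0.15 and −0.20. miR-92a, the most abundant miRNA of ESCs, had 24115 rpm in NPCs and 143134 rpm in ESCs and was 5.94-fold lower (5.90 to 5.97). Reads of miR-92a and miR-19b can come from more than 1 of these clusters and cannot be assigned.

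let-7 showed the opposite picture, where 25.6% of all compared miRNAs were higher in NPCs. All 9 members, miR-98 included, were higher in NPCs, with a sum of 80227 rpm in NPCs and 4590 rpm in ESCs and a median log2 ratio of 4.22. let-7a had 19609 rpm in NPCs and 973 rpm in ESCs, and let-7c had 14471 rpm in NPCs and 447 rpm in ESCs. let-7b had 4567 rpm in NPCs and 132 rpm in ESCs, the largest ratio of the family at 34.6-fold (32.7 to 36.6). The family is so alike in sequence that reads may be split between members, which the sum does not feel. The mRNA of LIN28A, which blocks let-7 maturation, had 0.0693 FPKM in NPCs and 1357 FPKM in ESCs, and LIN28B had 0.0132 FPKM in NPCs and 67.1 FPKM in ESCs. HMGA2, a known let-7 target, had 6.28 FPKM in NPCs and 34.3 FPKM in ESCs. It was higher in the rosette stages than in either, with 123 FPKM in R-NSCP1 and 62.9 FPKM in R-NSCP6. The part of LIN28 in the let-7 values was not tested.

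Several let-7 genes have a member of the miR-99/100 or miR-125 families next to them, and these did not all follow. miR-100 had 84734 rpm in NPCs and 331 rpm in ESCs, and at 256-fold (248 to 265) its ratio was the largest among miRNAs that were higher in NPCs and had at least 100 rpm. miR-99a, the neighbour of let-7c, had 6374 rpm in NPCs and 59.7 rpm in ESCs. miR-125b had 17544 rpm in NPCs and 1423 rpm in ESCs. By contrast, miR-99b had 23876 rpm in NPCs and 20876 rpm in ESCs, and its neighbour miR-125a-5p had 9391 rpm in NPCs and 5226 rpm in ESCs, while let-7e, of the same group, had 1745 rpm in NPCs and 187 rpm in ESCs. Within this group of neighbours only let-7e passed 2-fold, with a log2 ratio of 3.22.

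Other families were also higher in NPCs, and their counts stand beside the 25.6% higher over all compared miRNAs. All 5 miRNAs of the miR-181 family were higher, with a sum of 73029 rpm in NPCs and 7362 rpm in ESCs, as were all 6 of the miR-23/27/24 clusters, with 91748 rpm in NPCs and 18771 rpm in ESCs. miR-27b alone had 73188 rpm in NPCs and 16774 rpm in ESCs. The miR-29 family, which is known to target collagens and DNA methyltransferases, was higher in 3 of 3: miR-29a had 5192 rpm in NPCs and 1115 rpm in ESCs, and miR-29b had 806 rpm in NPCs and 102 rpm in ESCs. Of the miR-30 family, 5 of 6 were higher, and miR-30a-5p had 72711 rpm in NPCs and 6686 rpm in ESCs, whereas miR-30e, at 24386 rpm in NPCs and 18139 rpm in ESCs, lay within 2-fold. With counts not scaled for depth, or with all sequenced reads as the depth, 1 of 3 miR-29, 2 of 6 miR-30 and 4 of 6 miR-23/27/24 miRNAs were at least 2-fold higher, and still 5 of 5 of the miR-181 family.

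**Figure D3:**
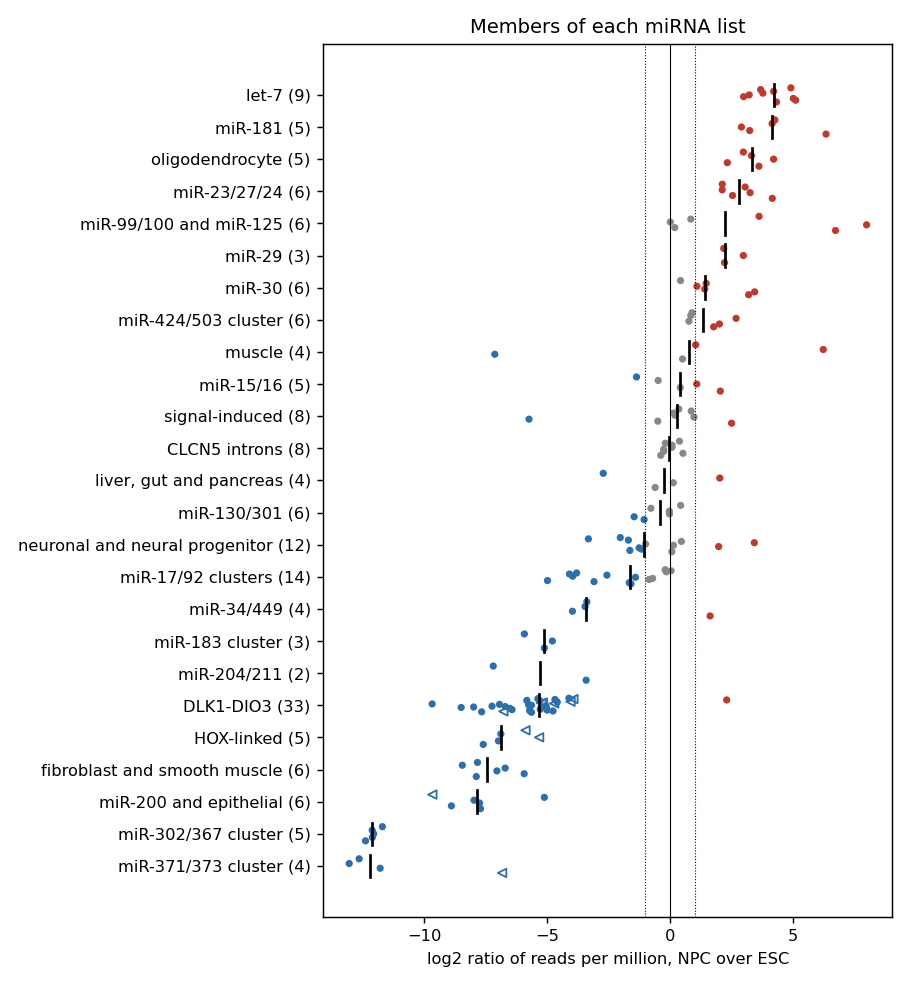
Log2 ratio of rpm, NPC over ESC, for the members of each miRNA list with at least 2 compared miRNAs (number in brackets). Points are single miRNAs, open triangles are bounds for miRNAs with no read in NPCs, black bars are medians, and dotted lines mark 2-fold. The lists run from the miR-371 and miR-302 clusters, with medians of −12.23 and −12.12, to let-7, at 4.22.

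Of 12 compared miRNAs known from neurons, 2 were higher, 6 lower and 4 within 2-fold, shares close to the 25.6% higher and 43.4% lower over all compared miRNAs. Without the averaged values 2 of 9 were higher and 4 lower, and the list median of −1.08 became −0.89 with TMM factors and −0.61 with DESeq2 size factors. miR-153 had 761 rpm in NPCs and 70.6 rpm in ESCs. The value listed as miR-132, which neuronal activity induces, was 386 rpm in NPCs and 97.9 rpm in ESCs. It may be a mean with miR-1323, though it is not counted among the averaged values. miR-124a, a miRNA of mature neurons, was low in both, with 116 reads in NPCs and 855 reads in ESCs (83.8 rpm), and miR-128b had 546 rpm in NPCs and 1306 rpm in ESCs. The value listed as miR-9, a neural progenitor miRNA, was 16889 rpm in NPCs and 16040 rpm in ESCs, but it is one of the averaged values and does not give the level of miR-9 itself. The 5 miRNAs listed for oligodendrocytes were all higher, at low levels: miR-338-3p had 74.3 rpm in NPCs and 7.45 rpm in ESCs, and miR-219-5p had 82.9 rpm in NPCs and 4.46 rpm in ESCs. miR-219 is deposited both as an averaged value and as miR-219-5p with the same sequence, so that these 5 are not 5 separate miRNAs.

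Some miRNAs outside these families were also higher in NPCs. miR-1251 had 9775 rpm in NPCs and 287 rpm in ESCs and was 34.1-fold higher (32.8 to 35.4). miR-335, from an intron of the imprinted gene MEST, had 2708 rpm in NPCs and 221 rpm in ESCs. miR-208b, known from heart muscle, had 104 rpm in NPCs and 1.37 rpm (14 reads) in ESCs. The miRNAs listed for muscle did not go 1 way: of 4 compared, 2 were higher, 1 was lower and 1 lay within 2-fold. The lower one, miR-133c, had 0.698 rpm in NPCs and 98.1 rpm in ESCs. miR-663 had 193 reads in NPCs and 2 in ESCs, a ratio of 229 (62.6 to 1905), and is named here after its values were seen.

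A further set was at or near 0 in NPCs. The DLK1-DIO3 domain, an imprinted region with a large miRNA cluster that is transcribed from the maternal copy, had 33 compared miRNAs, of which 32 were lower and 1 was higher. Over all compared miRNAs the share that was lower was 43.4%. The compared miRNAs of the domain and its members below 10 rpm summed to 165 rpm in NPCs and 9091 rpm in ESCs. miR-411 had 17.0 rpm in NPCs and 2092 rpm in ESCs, and miR-410 had 17.2 rpm in NPCs and 932 rpm in ESCs. The exception was miR-544a, with 50 reads in NPCs and 24 in ESCs, which was placed in the domain by its name only. Its sequence differs from that of miR-544, which is listed separately. It was not among the compared miRNAs of the groups of neighbouring loci in the domain (25 and 6 miRNAs), which were all lower. miR-127, which has the largest deposited value of the domain, is an averaged value. Without it the sums were 93.6 rpm in NPCs and 5503 rpm in ESCs.

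miRNAs of epithelia and of HOX genes were also lower, and their counts stand beside the 43.4% lower over all compared miRNAs. The 6 listed for epithelia summed to 3.73 rpm in NPCs and 1448 rpm in ESCs; miR-205 had no read in NPCs and 5827 in ESCs, at least 818-fold lower, and miR-200c had 3 reads in NPCs and 3404 in ESCs, a ratio of 478 (163 to 2319). The miR-183 cluster, known from sensory organs, was lower in 3 of 3, and miR-182 had 586 rpm in NPCs and 16229 rpm in ESCs. Of the miRNAs that lie among HOX genes 5 of 5 compared were lower: miR-10a had 23.0 rpm in NPCs and 4485 rpm in ESCs, and miR-10b had 40.5 rpm in NPCs and 5137 rpm in ESCs. miR-148a, among the 10 most abundant of ESCs, had 4288 rpm in NPCs and 42728 rpm in ESCs. miR-1298 had 2 reads in NPCs and 17641 in ESCs, a ratio of 3715 (1028 to 30682), and miR-448 had no read in NPCs and 1896 in ESCs.

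The ESC library also held miRNAs of fibroblasts and smooth muscle. All 6 of that list were lower in NPCs, where 43.4% of all compared miRNAs were lower. They summed to 122 rpm in NPCs and 21313 rpm in ESCs, or 2.13% of the ESC reads. In the rosette stages the sum was 2138 rpm in R-NSCP1 and 133 rpm in R-NSCP6. The value listed as miR-199a is an averaged one with the sequence of miR-199a-5p, and without it the other 5 summed to 105 rpm in NPCs and 19106 rpm in ESCs. miR-143 had 54.9 rpm in NPCs and 13005 rpm in ESCs, miR-199a-5p had 2.79 rpm in NPCs and 981 rpm in ESCs, and none of the 6 was at 0 in either library. ESCs alone grew on mouse fibroblasts, and many mature miRNAs have the same sequence in mouse and rhesus, so that reads of rhesus cells and of feeders cannot be told apart here. This touches any miRNA that fibroblasts make, and the part of the feeders in miR-10a, miR-10b and the other lower miRNAs was not tested. The 6 miRNAs listed for blood summed to 2.10 rpm in NPCs and 57.1 rpm in ESCs, and the 1 of them that was compared, miR-142-5p, was 38.6-fold lower, with 4 reads in NPCs.

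The rosette stages placed these differences along the way. Summed over members, the miR-302 cluster had 221844 rpm in ESCs, 3344 rpm in R-NSCP1, 24.3 rpm in R-NSCP6 and 48.2 rpm in NPCs. let-7 had 4590 rpm in ESCs, 3949 rpm in R-NSCP1, 34048 rpm in R-NSCP6 and 80227 rpm in NPCs. The miR-302 cluster was thus already low at R-NSCP1. In rpm let-7 had not yet passed its ESC level there, but this order depends on the scaling. The column sum was 21341946 in R-NSCP1 and 10196819 in ESCs, and in counts not scaled for depth let-7 was higher in R-NSCP1 than in ESCs. The HOX miRNAs had 9719 rpm in ESCs, 6666 rpm in R-NSCP1, 11.3 rpm in R-NSCP6 and 63.8 rpm in NPCs. A comparison of the end stages alone hides peaks between them. DLK1-DIO3, with the averaged miR-127 included, had 9091 rpm in ESCs, 5248 rpm in R-NSCP1, 24607 rpm in R-NSCP6 and 165 rpm in NPCs. miR-204 had 1360 rpm in ESCs, 25300 rpm in R-NSCP1, 27526 rpm in R-NSCP6 and 128 rpm in NPCs. The miR-29 family had 1250 rpm in ESCs, 186 rpm in R-NSCP1, 245 rpm in R-NSCP6 and 6151 rpm in NPCs, so that it was high in NPCs alone.

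**Figure D4:**
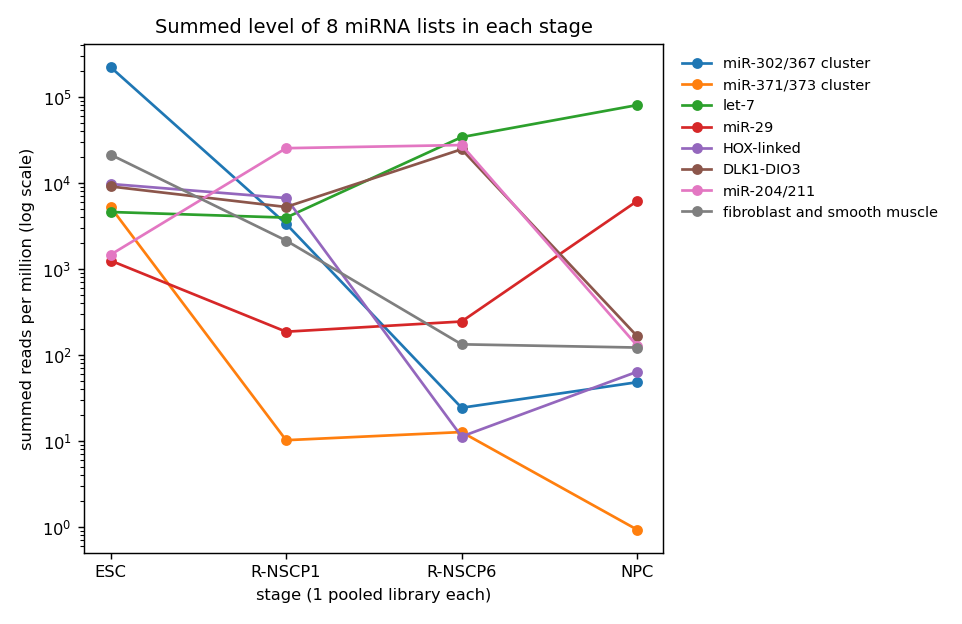
Summed level of 8 miRNA lists in each stage, in rpm on a log scale, with 1 pooled library per stage and lines drawn only to guide the eye. The miR-302 cluster is at 3344 rpm in R-NSCP1, let-7 reaches 34048 rpm at R-NSCP6, and DLK1-DIO3 and miR-204 with miR-211 have their highest values in the rosette stages.

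Neighbouring miRNAs were grouped by their distance. RefSeq loci of a later rhesus assembly, T2T-MMU8v2.0, were found for 423 of the 451 miRNAs, and 43 groups of loci no more than 10 kb apart held at least 2 compared miRNAs. In 14 of the groups every compared miRNA was higher in NPCs, in 13 every one was lower, and in 0 were there calls in both directions. The other 16 were not called throughout, and in 5 groups the log2 ratios had both signs. An example is miR-421, at −2.50, beside miR-374b, at 0.55. Some miRNAs have several loci and so stand in several groups. These counts of groups hold for rpm only. In counts not scaled for depth, miR-15a, miR-16, miR-27b, miR-29a, miR-29c, miR-30b and miR-30d were no longer 2-fold higher. The 8 compared miRNAs from the introns of CLCN5 were all within 2-fold in rpm, with a sum of 1012 rpm in NPCs and 983 rpm in ESCs. This also depended on the scaling: 0 to 7 of the 8 were lower under the 5 other scalings. Their median log2 ratio was −1.30 in counts not scaled for depth.

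The arms of 1 hairpin mostly kept their proportion. Of 53 hairpins with both arms in the table, 21 had enough reads, and 2 of them had a ratio of the arms that differed at least 3-fold. For miR-181a the deposited value of the 5p arm was 17.7 times that of the 3p arm in NPCs (17.4 to 18.01) and 153 times in ESCs (138 to 169). The 5p value appeared to be a mean over 2 entries, and miR-181a has the loci MIR181A-1 and MIR181A-2. This ratio is therefore not that of 1 hairpin, and a shift between the loci cannot be told apart from a shift between the arms. miR-181a-3p accordingly had 3089 rpm in NPCs and 37.9 rpm in ESCs, a larger ratio than that of miR-181a-5p, which had 54660 rpm in NPCs and 5774 rpm in ESCs. For miR-324 the 5p arm had 3.49 times the reads of the 3p arm in NPCs and 1.09 times in ESCs.

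miRNAs in introns were set beside the mRNA of their host genes, which are named as in human. For 46 miRNAs in 33 host genes, with at least 3 FPKM for the host and 10 rpm for the miRNA in NPCs or ESCs, the log2 ratios had the same sign in 31. How many pairs would share a sign from the numbers of higher and lower miRNAs and hosts alone was not worked out. The signs of miRNAs near 0 also depend on the scaling. In 8 pairs both the miRNA and the host, on the scale of log2(FPKM + 1), passed 2-fold, and in all 8 they went the same way. Among these, miR-488 with ASTN1 and miR-652 with TMEM164 were no longer 2-fold higher in counts not scaled for depth. MEST had 459 FPKM in NPCs and 68.8 FPKM in ESCs, beside miR-335. GPC1, a cell surface proteoglycan, had 69.2 FPKM in NPCs and 4.27 FPKM in ESCs, beside miR-149 with 4075 rpm in NPCs and 567 rpm in ESCs. FGF13 had 0.294 FPKM in NPCs and 7.32 FPKM in ESCs, beside miR-504 with 7.92 rpm in NPCs and 66.1 rpm in ESCs. The size did not always match. LARP7, within which the miR-302 cluster lies, had 24.1 FPKM in NPCs and 41.9 FPKM in ESCs, a log2 ratio of −0.77. The miRNAs of that cluster lay between −12.40 and −11.71. Pairs were listed by position, and whether a miRNA is read from the strand of its host was not checked. LARP7 and the cluster therefore need not share a transcript, and the 5 miRNAs of the cluster are among the 31 of the same sign. HUWE1, the host of miR-98, had 23.6 FPKM in NPCs and 31.8 FPKM in ESCs while miR-98 was 30.3-fold higher.

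**Figure D5:**
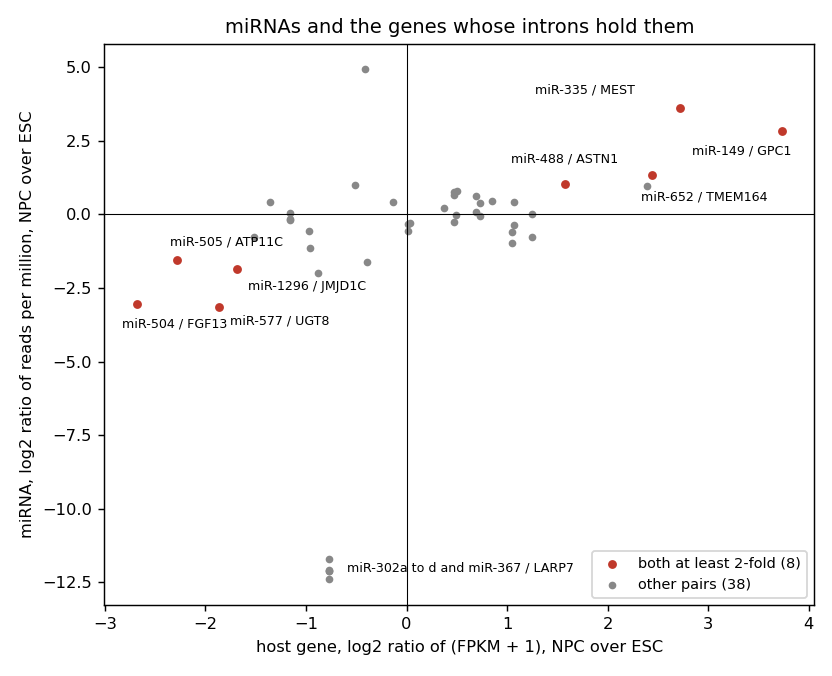
Log2 ratio, NPC over ESC, of 46 intronic miRNAs (rpm, y axis) against that of their host genes (FPKM + 1, x axis). Red points are the 8 pairs in which both passed 2-fold, which all lie in the upper right or the lower left, and the lowest points are the miR-302 cluster in LARP7, at −0.77 on the x axis.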

How the data were processed

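The small RNA reads of each stage were aligned by the authors with Bowtie to the rhesus miRNAs of miRBase, and the deposited values are expected counts, described as means over entries of the same miRNA (13 appear to cover several names) and not scaled for depth. A value was taken to cover several names where the smallest divisor that made all 4 stages whole was at least 3 and other names in the table begin with its own. A divisor of 2 was not taken so, which left out miR-132 and miR-211, although other names begin with theirs. mRNA values were deposited by the authors as FPKM, estimated with Cufflinks 2.0.2 per the labels and the counts behind single values were not used here. Counts were scaled to reads per 1000000 of the column sum (rpm), miRNAs with at least 10 rpm in either library were compared, and at least 2-fold was called. A count of 0 was set to 3 reads. Named were the 10 most abundant miRNAs of each library, the 10 largest folds in each direction (at least 100 rpm, reads in both), up to 10 with no read in 1 library, the whole miR-302 and miR-371 clusters, the most abundant members of every list (at most 6 each), and the arm and host pairs described. Lists such as those of neurons, fibroblasts and HOX loci were written from general knowledge, and members and lists were chosen with earlier results of these data known. A few miRNAs outside this rule (miR-18b, miR-106a, miR-124a, miR-132, let-7e, miR-544a and miR-663) were chosen after their values were seen. The 2-fold rule was run on counts simulated at known depths with counting error only, and the divisor rule on made-up means. These runs cannot speak for the scaling or for the spread between cultures. No test was made, with 1 library per stage. TMM factors of edgeR 4.0.16 and size factors of DESeq2 1.42.0 (R 4.3.3) on rounded counts were alternatives; Python 3.11.15 with pandas 2.3.3 and scipy 1.17.1 was used otherwise.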

Additional observations from a re-analysis of the deposited data

How the results depend on the processing

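No paired analysis was possible because each stage has 1 library and the labels give no replicate numbers. The number of miRNAs higher in NPC (79) became 49 with deposited counts not scaled for depth, 47 with all sequenced reads as the depth, and 51 with at least 100 rpm in either library, where miRNAs lower in NPC (134) became 81; the last pair follows from the fewer miRNAs compared. With TMM factors 90 were higher and 128 lower. The median log2 ratio moved by −1.25 without scaling, by −1.39 with sequenced reads, by 0.18 with TMM and by 0.47 with DESeq2 size factors. Without the 13 averaged miRNAs, an alternative chosen after seeing the data, 77 were higher and 129 lower. Without scaling, the log2 ratio turned to −0.16 for miR-16, −0.15 for miR-30c, −0.23 for miR-488, −0.20 for miR-499-5p and −0.14 for miR-508. With sequenced reads it was −0.31 for miR-16, −0.30 for miR-30c, −0.38 for miR-488, −0.35 for miR-499-5p, −0.15 for miR-506, −0.29 for miR-508 and −0.072 for miR-652, and the median of the cluster of miR-424 and miR-503 was −0.059. Without scaling and with sequenced reads, the list medians were also under 2-fold for miR-29 (0.97 and 0.82) and miR-30 (0.20 and 0.05). The same held for miR-99/100 and miR-125 (0.99 and 0.84), and the median of the miR-424 and miR-503 cluster was 0.09 without scaling. In both settings miR-27b, miR-24-5p, miR-29a, miR-29c, miR-30b, miR-30c and miR-30d were no longer 2-fold higher. Under all 5 scalings the 5 members of the miR-302 cluster stayed lower, with list medians from −13.51 to −11.65, and the 9 let-7 members stayed higher, with medians from 2.82 to 4.68. The low number of miRNA reads, not of sequenced reads, limits the NPC library most: a ratio on 1 to 3 reads there spans more than 10-fold in its interval.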

Other observations

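For 3 of the averaged values, every other name that begins with theirs is itself in the table, so that the remainder can be computed as the divisor times the deposited value less the counts of those names. For miR-127, with a divisor of 3, it came to 83 reads in NPCs and 107739 reads in ESCs, a log2 ratio of −9.09, where the deposited values gave −5.64. For miR-22, with a divisor of 5, it came to 51583 rpm in NPCs and 47216 rpm in ESCs, which would place miR-22 among the most abundant miRNAs of both. For miR-31 it came to 565 rpm in NPCs and 775 rpm in ESCs. These remainders rest on the reading of the divisor given above, which the sources used here do not state.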
